A study of Mus musculus with 6 samples.

Results

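The mitosis genes described here are 40 genes of G2 and mitosis, a set that runs from cyclin B and its kinase to the motors and scaffolds of the spindle. They were looked up by symbol among the 24520 Ensembl gene identifiers of the deposited table, whatever their level, and 40 of 40 were found. RNA was sequenced from endothelial cells, the lining of blood and lymph vessels, which were isolated from lungs of mice of wild-type (wt) genotype by FACS. The group labelled Aged held 3 libraries of 18-month-old mice and the group labelled mAdu held 3 libraries of 8-month-old mice, with no other allele or agent in the labels. The sources used here name neither the markers of the sort nor whether each library is a separate mouse, so p-values measure no more than the spread of these libraries, and that spread may be technical. TPM, the unit of all values, gives the abundance of a transcript per unit of its length relative to all transcripts of a library.

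Progress through mitosis is driven by cyclin-dependent kinase 1 bound to A- and B-type cyclins, and ends when the anaphase-promoting complex (APC/C), a ubiquitin ligase, marks the cyclins for destruction. Most genes of this group are silent or nearly so in resting cells and are transcribed together from late S phase until cell division. Their shared control is known to run through the DREAM repressor complex in resting cells and through B-MYB and FOXM1 in dividing cells, which act at a promoter element called the cell cycle genes homology region (CHR) and at nearby CCAAT boxes bound by NF-Y. Lung endothelium in the adult is largely quiescent. In a bulk sample, more dividing cells and more RNA per dividing cell cannot be told apart.

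The promoters are shown first because control elements lie there and the sequence is no measured value used in choosing the genes. RefSeq start-site windows on GRCm38.p6, from 250 bases before to 50 bases after a start site, were matched by symbol for 34 of the 40 genes (35 windows, since Prc1 has 2 starts). Tpx2, Foxm1, Pimreg, Aurkb, Ccna2 and Kif20a had no entry. A RefSeq start need not be the outermost start of a gene. In another annotation, GENCODE, the windows of Kif2c, Cdca8, Cdca3 and Kif4 lie wholly inside their genes and that of Mad2l1 wholly outside. The 6 windows below are printed 5′ to 3′ on the strand of the gene, with capitals for the CHR core (TTTGAA or TTCGAA, read on both strands, so also TTCAAA) and for the CCAAT box (also ATTGG). Ccnb2, Top2a and Kif22 were higher in every 18-month library than in any 8-month library, whereas Cdc20, Cenpa and Birc5 overlapped between the ages.
Ccnb2 (chr9:70421505-70421804, minus strand): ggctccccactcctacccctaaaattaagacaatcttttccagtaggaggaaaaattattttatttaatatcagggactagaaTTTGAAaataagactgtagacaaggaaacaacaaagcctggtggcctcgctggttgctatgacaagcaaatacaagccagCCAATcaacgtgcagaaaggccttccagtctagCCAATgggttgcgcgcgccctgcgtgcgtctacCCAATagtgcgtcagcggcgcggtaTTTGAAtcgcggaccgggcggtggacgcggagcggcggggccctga
Top2a (chr11:99024140-99024439, minus strand): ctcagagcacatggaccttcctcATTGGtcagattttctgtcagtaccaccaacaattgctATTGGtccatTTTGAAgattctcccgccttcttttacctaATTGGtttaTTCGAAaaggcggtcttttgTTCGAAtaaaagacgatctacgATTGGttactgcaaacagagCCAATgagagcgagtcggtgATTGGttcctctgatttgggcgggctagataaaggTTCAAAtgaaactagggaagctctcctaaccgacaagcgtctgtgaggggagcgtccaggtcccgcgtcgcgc
Kif22 (chr7:127042371-127042670, minus strand): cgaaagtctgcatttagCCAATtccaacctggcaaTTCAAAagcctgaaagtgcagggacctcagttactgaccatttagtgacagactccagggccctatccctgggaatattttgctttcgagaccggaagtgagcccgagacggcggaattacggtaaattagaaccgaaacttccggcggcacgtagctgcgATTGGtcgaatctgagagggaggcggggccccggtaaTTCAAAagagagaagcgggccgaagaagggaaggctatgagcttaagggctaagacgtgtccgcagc
Cdc20 (chr4:118437294-118437593, minus strand): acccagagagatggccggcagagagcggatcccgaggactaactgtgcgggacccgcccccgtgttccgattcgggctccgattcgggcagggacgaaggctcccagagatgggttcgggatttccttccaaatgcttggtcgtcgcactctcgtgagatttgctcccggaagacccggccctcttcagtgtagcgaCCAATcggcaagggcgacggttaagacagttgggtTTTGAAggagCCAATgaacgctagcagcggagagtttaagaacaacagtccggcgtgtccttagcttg
Cenpa (chr5:30666636-30666935, plus strand): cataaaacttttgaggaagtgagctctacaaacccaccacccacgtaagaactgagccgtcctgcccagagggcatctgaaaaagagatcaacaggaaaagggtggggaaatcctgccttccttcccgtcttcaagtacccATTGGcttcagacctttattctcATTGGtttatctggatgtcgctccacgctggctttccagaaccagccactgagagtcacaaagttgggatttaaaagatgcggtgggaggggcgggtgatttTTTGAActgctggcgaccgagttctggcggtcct
Birc5 (chr11:117848987-117849286, plus strand): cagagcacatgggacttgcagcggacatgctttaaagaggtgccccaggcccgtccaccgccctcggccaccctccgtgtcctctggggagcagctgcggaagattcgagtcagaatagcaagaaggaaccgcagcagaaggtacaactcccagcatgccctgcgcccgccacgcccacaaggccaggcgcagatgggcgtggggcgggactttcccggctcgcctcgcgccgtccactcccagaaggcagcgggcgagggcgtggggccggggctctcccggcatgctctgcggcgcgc

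In these windows Ccnb2 held 3 CCAAT boxes and 2 CHR cores, whose first bases lay at positions -167 and 5, counted from 1 at the start site with no position 0. Top2a held 6 CCAAT boxes and 4 CHR cores, the last of them at position -23, and Kif22 held cores at -215 and -17, with CCAAT boxes at -233 and -54. Of the overlapping genes, Cdc20 held a core at -18 between 2 CCAAT boxes, and Cenpa held a core at 17 downstream of 2 CCAAT boxes. Birc5 had no match to either motif in its window.

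A CHR core was found in 29 of the 35 windows, 82.9%, against 19.2% of all 32851 RefSeq windows of the same length and 17.6% of those of protein-coding genes. The 2 windows of Prc1 overlap and hold the same core and the same CCAAT box, so each is counted in both windows. Positions were compared in the same way, with the Prc1 core counted at -5 and at -30. Of the 40 matches in the mitosis genes, 29 (72.5%) had their first base at -30 or later, against 19.3% of the 7260 matches in all windows, so that 77.1% of the mitosis windows and 4.14% of all windows had a core near the start site. CCAAT boxes were in 26 windows (74.3%) against 37.4% of all, and 18 windows (51.4%) had 2 or more against 11.7%. Both motifs together were in 24 windows (68.6%), against 7.52% of all windows. The core was in 22 of 25 windows of genes whose ages did not overlap and in 7 of 10 windows of genes whose ages did, and both motifs in 17 of 25 and 7 of 10. Anln, Kif15, Kif2c, Knl1 and Ndc80 had a core without a CCAAT box, Ccnb1 and Cenpe the reverse, and Birc5, Mad2l1, Nuf2 and Nusap1 had neither. A match describes letters in a window and is not evidence of binding, and a window without one says nothing about the factor.

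**Figure D1:**
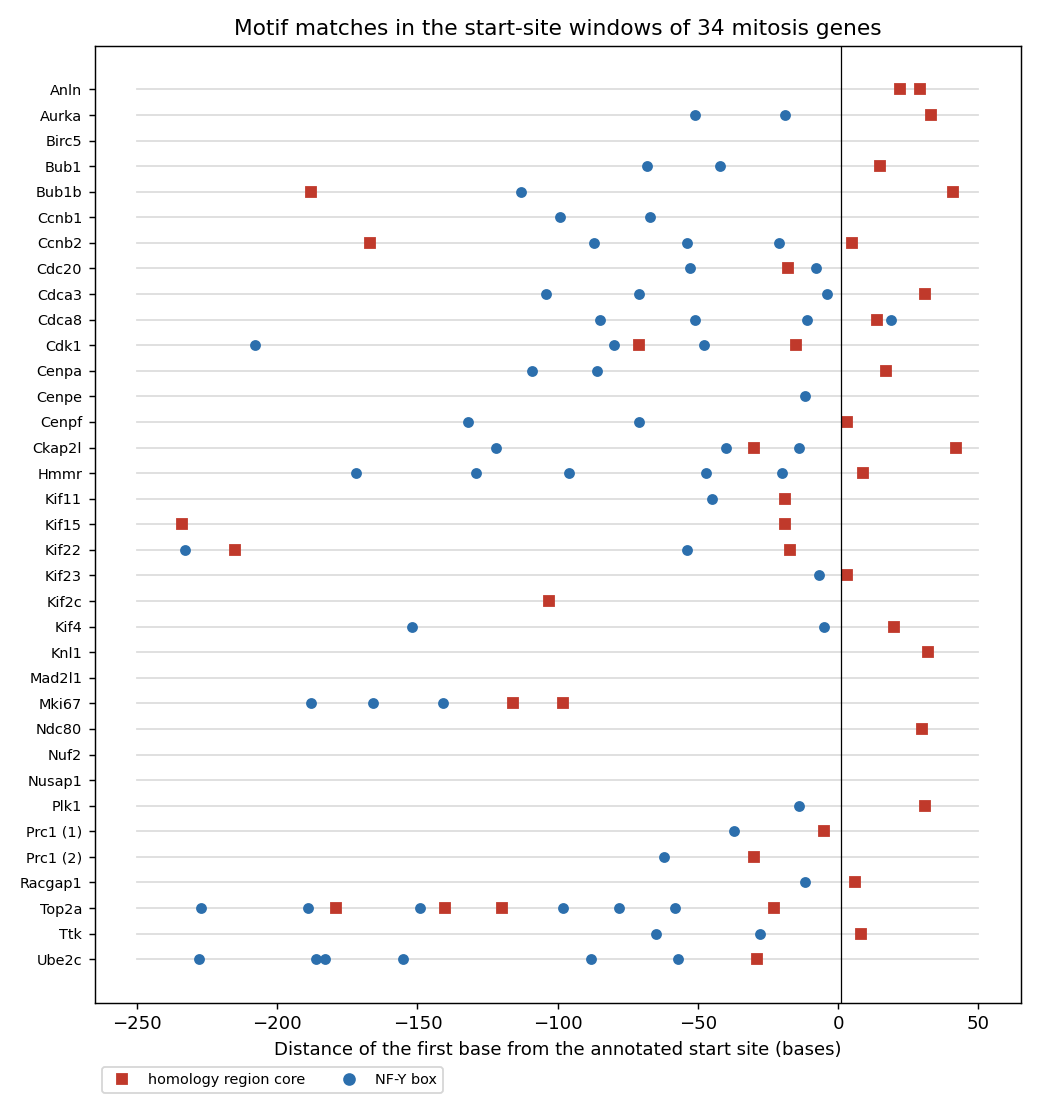
Each row is a start-site window of a mitosis gene (35 windows of 34 genes), the x axis is the distance in bases from the annotated start site to the first base of a match, squares are CHR cores and circles are CCAAT boxes. The cores gather at the start site, with 29 of 40 at -30 or later, where the core of Prc1 is counted in both of its windows.

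All 40 genes were low, at 0 to 10.4 TPM over the 6 libraries. The summed level of the 40 was 138.3, 99.2 and 133.8 TPM in replicates 1, 2 and 3 at 18 months, compared with 55.1, 62.2 and 60.8 TPM at 8 months. These sums were between 0.00629% and 0.0158% of the summed TPM of a library. The mean sum at 18 months was 123.8 ± 21.4 TPM and that at 8 months 59.4 ± 3.77 TPM (SD, n = 3 each). Per library the median of the 40 was 3.02, 2.16 and 3.09 TPM at 18 months, compared with 0.568, 0.804 and 0.988 TPM at 8 months. So the lowest 18-month library stood above the highest 8-month library in both the sum and the median.

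The genes were proposed with their age difference in view, so this comparison describes that difference and tests nothing. The mean at 18 months was higher for 39 of 40 genes, where 36.8% of all 19206 genes above 0 in at least 1 library had a higher mean at 18 months. For 29 of the 40 it was more than 2 times as high, where 8.18% of all genes were. In 30 of the 40 every 18-month library lay above every 8-month library, and the percentage of all genes separated in this direction was 4.70%. Among genes with a mean of 1 TPM or more it was 4.48%, with 21 of the 30 mitosis genes of that level separated. In the opposite direction 0 of the 40 were separated, against 11.7% of all genes. Of the 360 pairs of an 18-month with an 8-month library, 9 for each gene, 329 were higher at 18 months. Cenpa was the 1 gene with a lower mean at 18 months.

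At the level of single genes, 0 of the 30 mitosis genes tested passed limma at an adjusted p of 0.05, where 0.0235% of all 12748 genes tested did in either direction and 0.00784% did as higher. The lowest limma adjusted p among them was 0.079. At an unadjusted p of 0.05, limma called 21 as higher and 0 as lower, where it called 3.45% of all genes as higher and 9.99% as lower. Tested genes averaged 1 TPM or more across the 6 libraries, which left out 10 of the 40 (9 of them separated as higher), and genes that reached this mean through the 18-month libraries alone were bound to differ. The median difference in log2(TPM + 1), 18 minus 8 months, was 0.67 over all 40 genes against -0.05 over the 19206 genes above 0, and 0.85 over the 30 tested against -0.08 over all tested genes. This scale understates the differences of low genes, and in plain TPM the median difference was 1.35, from -0.54 for Cenpa to 5.61 for Pimreg.

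**Figure D2:**
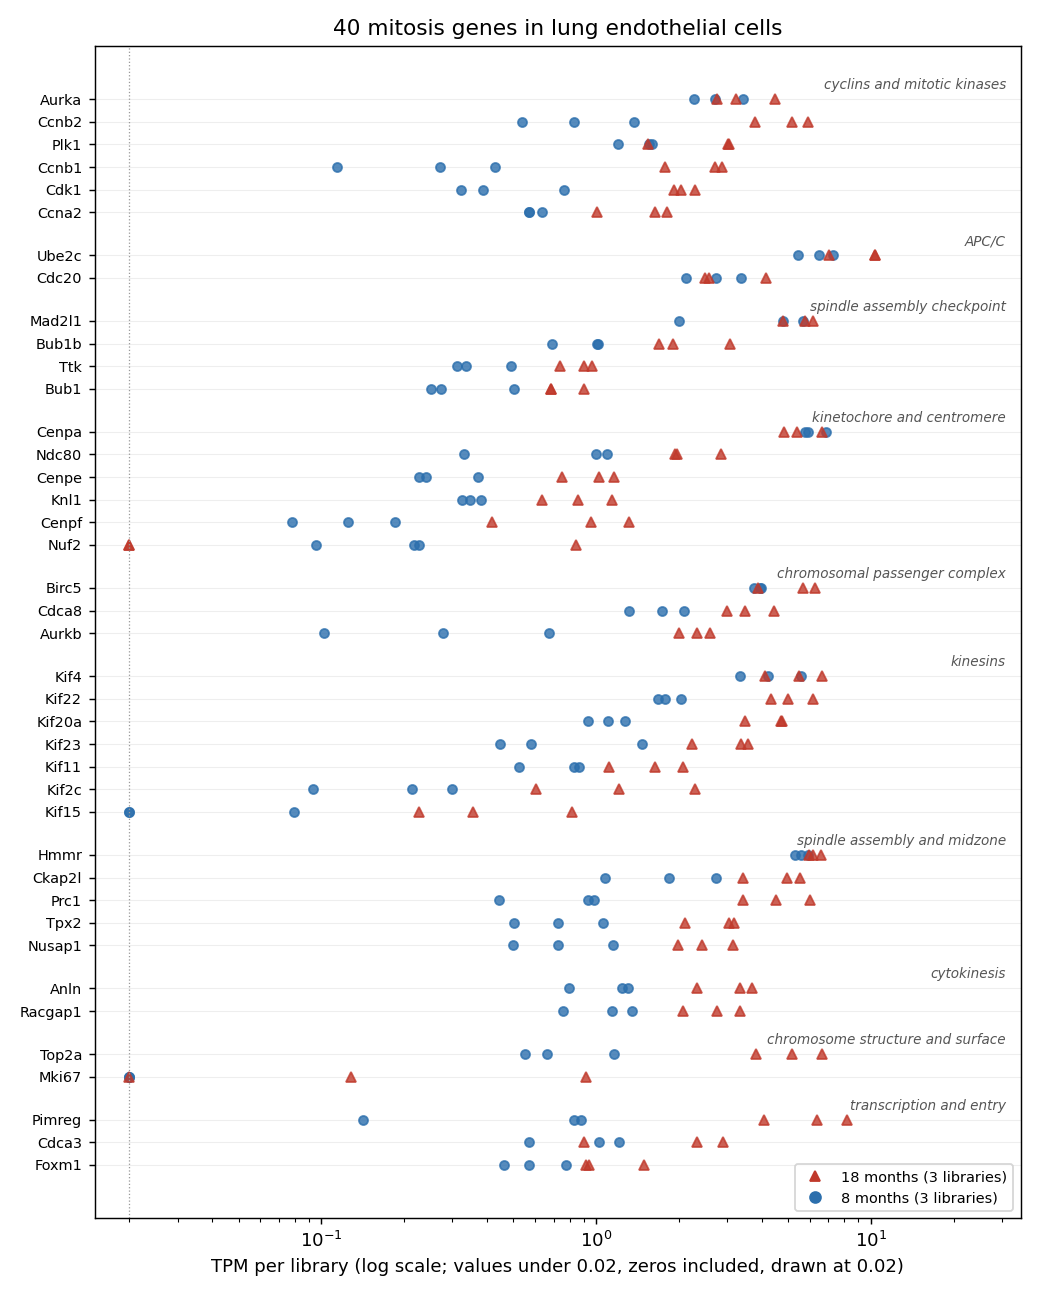
Each row is 1 of the 40 mitosis genes, grouped by role, with TPM on a log scale, triangles for the 3 libraries at 18 months and circles for the 3 at 8 months. In 30 rows all triangles lie to the right of all circles, and the rows where they mix are mostly those with the highest circles.

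Among the cyclins and mitotic kinases, 4 of 6 genes were separated by age. Ccnb2, a B-type cyclin, stood at 5.91, 3.78 and 5.18 TPM at 18 months, compared with 0.538, 0.830 and 1.38 TPM at 8 months. The difference in log2(TPM + 1) was 1.64 (SE 0.23). Ccnb1, the main mitotic cyclin, stood at 1.78, 2.71 and 2.88 TPM against 0.114, 0.430 and 0.269 TPM, a ratio of means of 9.06. Its lowest 18-month library was thus about 4 times its highest 8-month library, although 27.8% of the 31-base sequences of its transcripts also occur in other genes, mainly its pseudogenes. Cdk1, the kinase that these cyclins activate, was separated at 2.28, 1.92 and 2.04 TPM against 0.387, 0.765 and 0.322 TPM. The remaining separated gene was Ccna2, the cyclin of S phase and early mitosis, with means of 1.48 ± 0.424 and 0.591 ± 0.0377 TPM (SD, n = 3). In exon sequence 12.5% of Ccna2 overlaps Exosc9 on the opposite strand, a gene that lay between 51.7 and 59.8 TPM. Plk1, the polo kinase, overlapped at 3.01, 1.54 and 3.04 TPM against 1.20, 1.56 and 1.59 TPM, with the second 18-month library inside the 8-month range. Aurka, the centrosomal Aurora kinase, overlapped more widely, at 4.46, 2.76 and 3.23 TPM against 3.43, 2.72 and 2.26 TPM.

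The APC/C genes of the group were the coactivator Cdc20 and the ubiquitin-conjugating enzyme Ube2c, and neither was separated. Ube2c was the most abundant of the 40, at 10.4, 7.01 and 10.3 TPM at 18 months, compared with 5.44, 6.48 and 7.29 TPM at 8 months. In exon sequence 22.8% of Ube2c overlaps Tnnc2 on the opposite strand, a gene that lay between 0.717 and 2.06 TPM. Cdc20 stood at 4.17, 2.58 and 2.49 TPM against 2.13, 2.73 and 3.37 TPM, so that its ages were interleaved and its log2 difference was 0.11 (SE 0.22). Its direction rested on single libraries: without the first 18-month library the log2 difference was -0.07, and without the first 8-month library it was -0.01.

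Of the 4 genes of the spindle assembly checkpoint, which holds anaphase until every chromosome is attached, 3 were separated. Bub1b, which encodes the checkpoint protein BUBR1, stood at 3.08, 1.70 and 1.90 TPM at 18 months, compared with 1.01, 0.689 and 1.01 TPM at 8 months. The checkpoint kinase Ttk was separated at a lower level, at 0.962, 0.739 and 0.906 TPM against 0.489, 0.337 and 0.312 TPM, and Bub1 had means of 0.757 and 0.342 TPM. Mad2l1, which encodes the inhibitor of CDC20, overlapped, at 6.17, 4.77 and 5.77 TPM against 5.64, 4.79 and 2.0 TPM. Of its 6 values only that of the last 8-month library stood below the rest.

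Of the 6 kinetochore and centromere genes, 4 were separated. Ndc80, part of the complex that grips microtubule ends, was separated at 2.85, 1.97 and 1.94 TPM against 0.332, 1.10 and 0.996 TPM. Cenpe, a kinetochore motor, was separated at a lower level, at 1.16, 0.753 and 1.02 TPM against 0.240, 0.372 and 0.226 TPM, as were Cenpf and the scaffold gene Knl1 with 18-month means of 0.897 and 0.878 TPM. Cenpa, the histone H3 variant that marks centromeres, went the other way in its mean, at 5.40, 4.83 and 6.66 TPM against 5.77, 5.89 and 6.85 TPM. Its log2 difference of -0.12 had an SE of 0.16. The first and second 18-month values lay below all 8-month values, and the last one lay within their range. Nuf2, the partner of NDC80, was listed at 0 in 2 of the 18-month libraries and at 0.844 TPM in the other one, compared with 0.227, 0.0958 and 0.217 TPM at 8 months. Its higher 18-month mean thus rests on 1 library.

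The chromosomal passenger complex corrects wrong attachments and then directs cytokinesis. Its kinase gene Aurkb stood at 2.61, 2.0 and 2.33 TPM at 18 months, compared with 0.103, 0.673 and 0.276 TPM at 8 months, a ratio of means of 6.60. Cdca8, which encodes the subunit borealin, stood at 4.42, 2.98 and 3.47 TPM against 1.73, 1.32 and 2.09 TPM. Both were separated. Birc5, which encodes survivin of the same complex, was not, at 5.66, 3.89 and 6.26 TPM against 3.75, 3.96 and 3.97 TPM. Aurkb, Cdca8 and Birc5 thus had ratios of means between 1.35 and 6.60. Incenp, a subunit gene of this complex outside the 40, had a lower mean at 18 months. It overlapped at 0.637, 1.39 and 1.68 TPM against 1.85, 0.995 and 1.28 TPM, a ratio of means of 0.897.

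Of the 7 kinesins, motors that build the spindle and move chromosomes, 6 were separated. Kif22, which pushes chromosome arms, stood at 4.99, 4.33 and 6.15 TPM against 2.03, 1.78 and 1.68 TPM, a log2 difference of 1.11 (SE 0.18). Kif20a, a motor of the central spindle, stood at 4.72, 3.47 and 4.75 TPM against 0.933, 1.10 and 1.28 TPM. In both, the lowest 18-month value was more than 2 times the highest 8-month value. In Kif20a 29.3% of exon bases overlap Cdc23 on the opposite strand, and Cdc23 lay at 51.2, 48.1 and 53.7 TPM at 18 months, compared with 54.9, 59.9 and 51.0 TPM at 8 months, and its ages overlapped. Kif23, Kif11 and Kif2c had 18-month means of 3.06, 1.61 and 1.36 TPM and 8-month means of 0.831, 0.739 and 0.202 TPM. Kif15 was the lowest kinesin and was listed at 0 in 2 of the 8-month libraries. Kif4, the chromokinesin, overlapped at 4.10, 5.49 and 6.61 TPM against 3.33, 5.56 and 4.22 TPM. In Kif4 15.1% of exon bases overlap Pdzd11 on the opposite strand, a gene that lay between 46.5 and 62.6 TPM.

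All 5 genes of spindle assembly and the midzone were separated. Prc1, which bundles microtubules between the separating chromosomes, stood at 6.01, 4.52 and 3.41 TPM at 18 months, compared with 0.443, 0.936 and 0.981 TPM at 8 months. The difference in log2(TPM + 1) was 1.65 (SE 0.24). Its exons overlap Rccd1 on the opposite strand over 11.1% of their bases. Ckap2l, a spindle protein gene, stood at 4.96, 3.42 and 5.53 TPM against 1.08, 2.72 and 1.85 TPM. Hmmr, whose product links the spindle to its poles, was separated by a narrow margin, at 6.56, 5.97 and 6.14 TPM against 5.29, 5.90 and 5.57 TPM, a ratio of means of 1.11. Tpx2, the activator of Aurora A, and Nusap1 had 18-month means of 2.77 and 2.52 TPM against 0.761 and 0.791 TPM.

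Both cytokinesis genes were separated. Anln, which encodes the scaffold anillin of the contractile ring, stood at 3.34, 2.33 and 3.69 TPM against 0.794, 1.24 and 1.30 TPM. Racgap1, whose product with KIF23 forms centralspindlin, stood at 2.07, 2.75 and 3.33 TPM against 1.35, 0.758 and 1.14 TPM. Their log2 differences were 0.96 and 0.83, each with an SE of 0.21.

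Top2a, the topoisomerase that untangles and compacts mitotic chromosomes, and Pimreg, a mitotic regulator that binds the clathrin assembly protein CALM, had the highest log2 differences of the 40. Top2a stood at 6.61, 3.83 and 5.17 TPM at 18 months, compared with 0.552, 0.660 and 1.16 TPM at 8 months. Pimreg stood at 8.21, 4.07 and 6.39 TPM against 0.142, 0.878 and 0.831 TPM, a log2 difference of 2.15 (SE 0.29). In both genes the second 18-month library was the lowest of its age and still above 3 times the highest 8-month library. Foxm1, the transcription factor that activates many of these genes, was itself low, at 1.5, 0.920 and 0.939 TPM against 0.568, 0.778 and 0.463 TPM. Cdca3, a trigger of mitotic entry, overlapped at 2.33, 0.905 and 2.90 TPM against 1.02, 0.569 and 1.21 TPM, again through the second 18-month library.

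Mki67, the gene of the Ki-67 antigen used to stain dividing cells, stood apart from Top2a in level. At 18 months it was given as 1.9e-05, 0.128 and 0.919 TPM, whereas all 3 libraries at 8 months listed it at 0. The count of 30 separated genes includes it, although its first 18-month value is in effect 0, so the separation of Mki67 rests on that value. Its principal transcript of 10061 bases is among the longest of the group, whose transcripts run from 947 bases for Birc5 to 11130 bases for Cenpf. Cenpf, Cenpe and Knl1, each with a principal transcript of more than 7 kb, also stayed below 1 TPM in their means at both ages, while Mad2l1, with 7557 bases, did not. Over the 40 genes, Spearman's rho between transcript length and level was -0.39 for the 18-month means and also -0.39 for the 8-month means, given as a description, since the genes share their libraries.

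Separated genes were mostly those with a low level at 8 months. Of the 32 genes with a mean under 2 TPM at 8 months, 29 were separated, and of the 8 genes at or above it (Ube2c, Cenpa, Hmmr, Kif4, Mad2l1, Birc5, Aurka and Cdc20) 1 was, namely Hmmr. Over all genes the corresponding percentages were 6.08% under and 3.76% at or above 2 TPM, a level chosen after the values were seen. In plain TPM the median difference was 1.52 in the lower group, from 0.101 for Nuf2 to 5.61 for Pimreg, and 0.855 in the higher group, from -0.54 for Cenpa to 2.82 for Ube2c. The 8-month mean enters both sides of this comparison, so it is a description only.

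**Figure D3:**
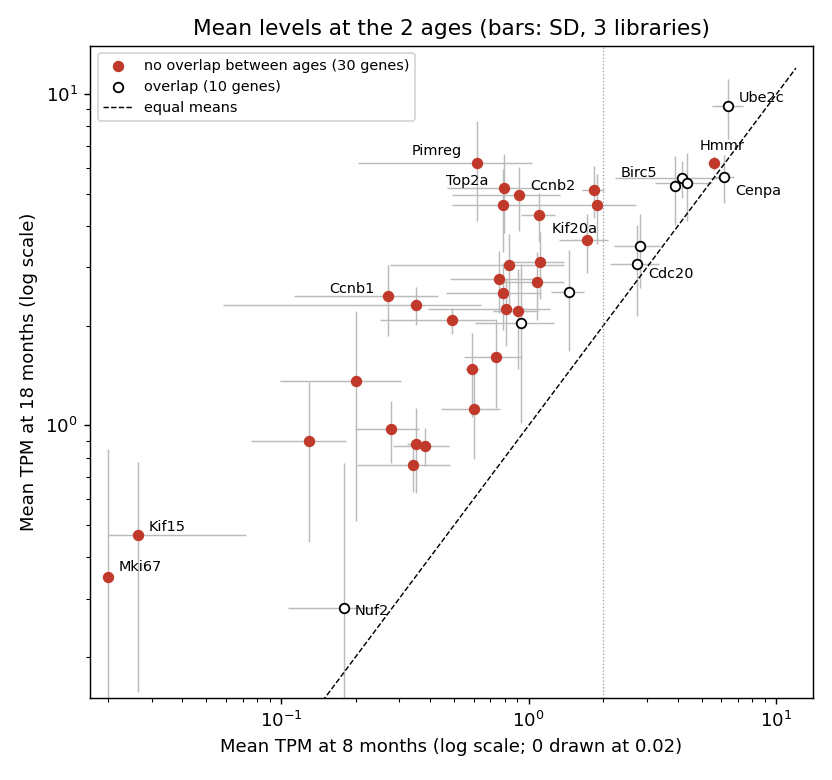
Each point is 1 of the 40 mitosis genes, with its mean TPM at 8 months on the x axis and at 18 months on the y axis (both log scales), bars give the SD of 3 libraries (shortened at the edges of the plot, with the 0 of Mki67 drawn at the left edge), the dashed line marks equal means and the dotted line 2 TPM. Filled points, whose ages did not overlap, lie mostly left of 2 TPM and above the line, and Cenpa is the point below it.

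Within an age the mitosis genes varied together to a limited degree. In log2(TPM + 0.1), with each age's mean removed, the median correlation between 2 genes over the 6 libraries was 0.34, and 71.8% of the 780 gene pairs were positive. The same over all genes is not given, and whole libraries also shifted. Mean deviations of the mitosis genes and of all tested genes were -0.33 and -0.095 in the second 18-month library. They were -0.17 and -0.083 in the first 8-month library, and 0.19 and -0.014, with unlike signs, in the third 18-month library. The second 18-month library was the lowest of its age for 30 of the 40 genes and the highest for 0. It was also the lowest for 52.4% of all tested genes, and the first was the highest for 22 of the 40 and for 52.1% of all. At 8 months the first library was the lowest for 25 of the 40 and for 44.4% of all tested genes. Without the second 18-month library 35 of the 40 genes were separated, where 8.94% of all genes were. Leaving out any other library gave 30 or 31, where 6.78% to 8.81% of all genes were separated. With all 6 libraries that share was 4.70%.

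Values can be shared between genes where sequence is shared. For 31 of the 40 genes, under 10% of their 31-base transcript sequences occur in other genes, and 25 of these 31 were separated. Of the other 9 (Ccna2, Ccnb1, Plk1, Cdc20, Ube2c, Ndc80, Kif20a, Kif4 and Prc1) 5 were separated. Over all genes, whatever their shared sequence, 4.70% were separated as higher, and no share by shared sequence is given.

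Other genes of the cell cycle give the setting. Of 72 further G2 and mitosis genes, 59 had a higher mean at 18 months, 29 were separated as higher and 1, the phosphatase gene Cdc25b, as lower, with a median log2 difference of 0.36 over the 72. Over all genes 36.8% had a higher mean, 4.70% were separated as higher and 11.7% as lower. Limma passed 0 of the 39 tested at an adjusted p of 0.05, and called 9 as higher and 1 as lower at an unadjusted p of 0.05, where it called 3.45% and 9.99% of all genes. In log2(TPM + 1) the largest differences among the separated genes were those of the mitotic kinase Pbk, at 5.52, 2.57 and 6.31 TPM against 0.333, 0.376 and 1.10 TPM, and of the spindle gene Ckap2, at 4.07, 2.81 and 3.91 TPM against 0.126, 0.847 and 0.416 TPM. By level, 26 of the 47 genes under 2 TPM at 8 months and 3 of the 25 at or above it were separated as higher. The most abundant was Pttg1, which encodes securin, with 312.7, 357.7 and 367.1 TPM against 360.5, 350.9 and 329.8 TPM and no separation. A CHR core lay in 41 of the 67 start-site windows matched for these genes (61.2%), against 19.2% of all RefSeq windows.

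Of 46 genes of DNA replication and S phase, 32 had a higher mean at 18 months (36.8% of all genes had). Of the 46, 12 were separated as higher and 2, Gins4 and Pold1, as lower, against 4.70% and 11.7% of all genes, and the median log2 difference was 0.12. Limma passed 0 of the 38 tested at an adjusted p of 0.05 and called 7 as higher and 2 as lower at an unadjusted p of 0.05 (3.45% and 9.99% of all genes). Rrm2, the regulated subunit of ribonucleotide reductase, had the largest difference in log2(TPM + 1) among the separated genes, at 13.5, 6.65 and 7.85 TPM against 1.86, 2.76 and 1.40 TPM. In plain TPM the difference of Pcna, the sliding clamp of DNA polymerases, was larger, at 12 against 7.33 for Rrm2. A CHR core was in 7 of their 43 windows (16.3%), near the 19.2% of all RefSeq windows. Whether the replication genes differ from the mitosis genes in their age difference was not tested.

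Among the regulators of this programme few genes were separated. Over all genes 4.70% were separated as higher and 11.7% as lower. Of 19 genes of DREAM, NF-Y, E2F and retinoblastoma proteins, 1 was separated as higher (E2f8) and 1 as lower (E2f5), with a median log2 difference of -0.02. Of 16 constant subunits and partners of the APC/C, 1 was higher (Anapc15) and 1 lower (Anapc7), with a median of -0.11. Among 16 CDK inhibitor and G1 genes, Cdkn2b, Cdkn2a and Ccnd3 were separated as lower and Cdk6 as higher, with a median of -0.15. With 1 to 3 genes a direction in lists of 16 to 19, these counts are near the shares over all genes, and nothing is read from them. Cdkn2b, the inhibitor p15 of CDK4 and CDK6, stood at 28, 20.8 and 25.2 TPM against 33.7, 52.9 and 54.3 TPM, and Cdkn2a, the locus of p16, at 0.496, 0.340 and 0.216 TPM against 0.610, 1.84 and 1.92 TPM. Limma passed 0 genes of these lists at an adjusted p of 0.05, and at an unadjusted p of 0.05 it called 0 and 1 regulators, 1 and 0 APC/C genes and 1 and 2 inhibitor and G1 genes as higher and lower, against 3.45% and 9.99% of all genes.

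**Figure D4:**
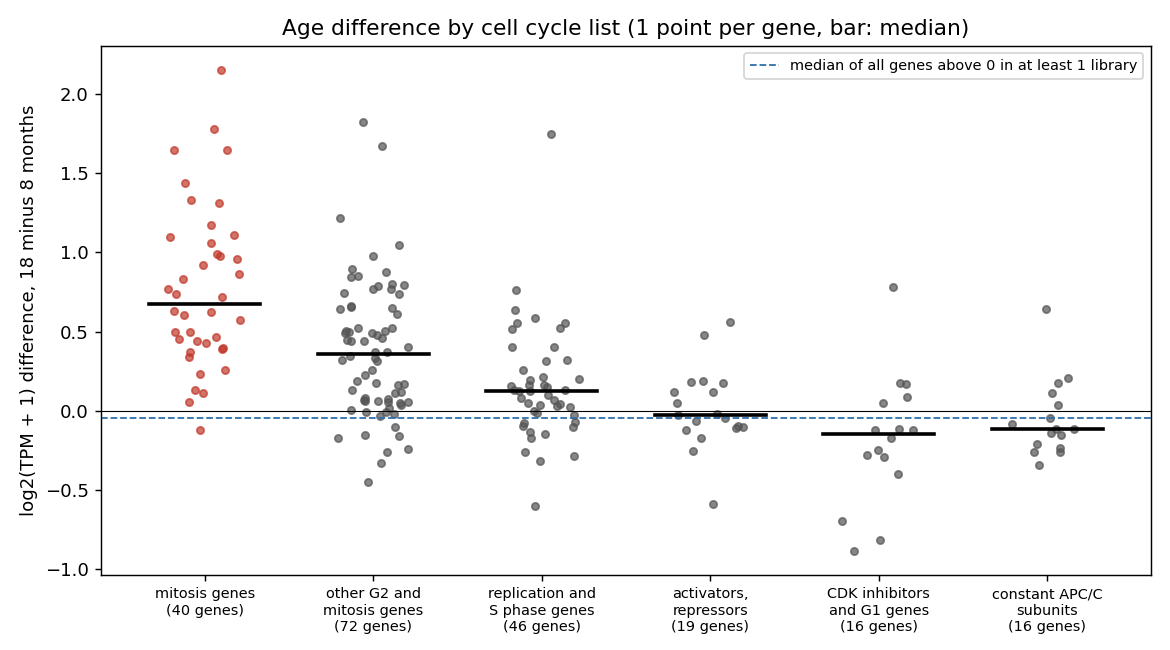
Each point is a gene, the y axis is its difference in log2(TPM + 1), 18 minus 8 months, black bars are medians per list and the dashed line is the median of all genes above 0. The medians were 0.67 for the mitosis genes, 0.36 for the further G2 and mitosis genes and 0.12 for replication, and the other lists lay between -0.15 and -0.02.

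Endothelial identity was checked with 10 markers, all detected. Their summed level was lower at 18 months, at 6265 to 7145 TPM against 7558 to 8176 TPM, and 9 of the 10 had a lower mean. Cdh5, Kdr, Eng and Esam were separated as lower, 4 of 10 against 11.7% of all genes. The 1 marker without a lower mean was Pecam1, at 1306 to 1442 TPM at 18 months and 1286 to 1411 TPM at 8 months. The part of these levels in the difference of the mitosis genes was not tested. RNA of other lung cells was present, with the airway gene Scgb1a1 at 5224 to 12297 TPM and the surfactant gene Sftpc at 3945 to 11881 TPM over the 6 libraries. Summed epithelial markers (10 genes, with Foxj1 separated as higher) spanned 9506 to 19343 TPM at 18 months and 11014 to 20192 TPM at 8 months. Of 20 macrophage, monocyte and dendritic cell markers 15 had a higher mean at 18 months (36.8% of all genes had), and 2, Chil3 and Cd14, were separated as higher (4.70% of all genes were). They summed to 1529, 1725 and 937.0 TPM at 18 months and to 639.1, 697.8 and 1780 TPM at 8 months, while Csf1r stood at 0.745 TPM in the first 18-month library and at 0.00242 TPM or less in the other 5, and Ptprc lay between 1.63 and 9.40 TPM. The 13 T, NK and B cell markers found of 15 summed to 25.6 to 36.4 TPM at 18 months and 26.0 to 70.0 TPM at 8 months, with 0 separated.

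The third 8-month library was the highest of the 6 in the summed markers of macrophages, of lymphocytes, of epithelium, of red cells (8 genes, with Slc4a1 separated as lower, 1843 TPM) and of platelets (49.2 TPM), and its mitosis genes summed to 60.8 TPM, within the range of the other 8-month libraries. The third 18-month library had the lowest macrophage sum of its age and the lowest epithelial sum of the 6, and its mitosis genes summed to 133.8 TPM. Fibroblast, smooth muscle and pericyte markers (11 genes) summed to 29.7 to 38.2 TPM at 18 months and 50.7 to 79.4 TPM at 8 months, with 7 separated as lower (11.7% of all genes were) and 0 as higher. Neutrophil and mast cell markers (9 genes, with S100a8 and S100a9 separated as higher and Mcpt4 as lower) summed to 6.05 TPM at most and mesothelial markers to 0.415 TPM at most. Which cells the mitosis RNAs came from was not tested.

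**Figure D5:**
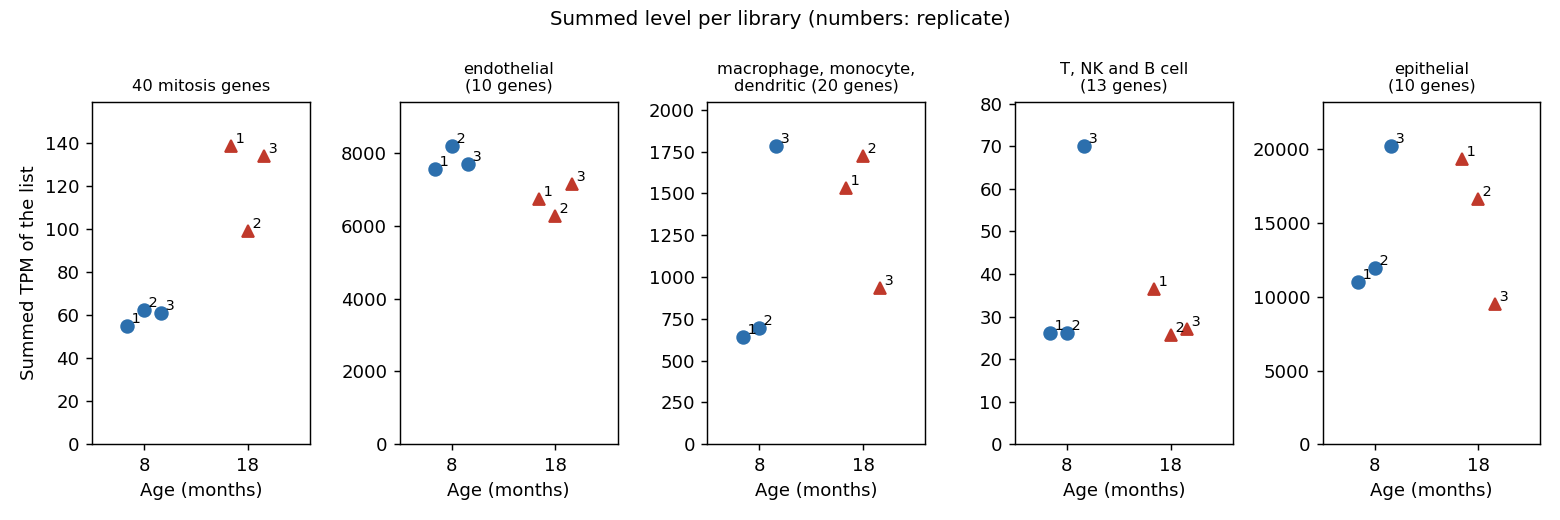
Each panel gives the summed TPM of a list per library, circles at 8 months and triangles at 18 months, with the replicate number beside each point and every y axis starting at 0. The mitosis genes are higher at 18 months without overlap (99.2 to 138.3 against 55.1 to 62.2 TPM), the endothelial markers are lower without overlap (6265 to 7145 against 7558 to 8176 TPM), and the macrophage, lymphocyte and epithelial sums overlap and are highest in the third 8-month library.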

How the data were processed

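The deposited values are TPM, made by the authors with kallisto on the build mm10, per the submitters' processing notes, with 1 column per library. The sources used here do not give the version, transcript set, gene summing or strand setting. Per the labels' protocols, 10 ng of RNA per library were prepared with the SMARTer Ultra Low kit and read at 100 bp from both ends. Columns sum to 869315 to 876126 TPM and 17325 to 17513 genes per library lie above 0. TPM keep no depth, so no counting error is given. Without strand marking, overlapping opposite-strand genes share reads.

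Symbols came from GENCODE M21 (GRCm38), which holds 24299 of the 24520 identifiers, and 31-base sequences were compared on both strands of its transcripts. Differences are in log2(TPM + 1), fitted over the 12748 genes that averaged 1 TPM or more by limma 3.58.1 in R 4.3.3 (intensity trend, age as the sole term, 2-sided, Benjamini-Hochberg), and the fit was tested on simulated data. Members and lists were chosen with earlier results of these data known, so no list has a p. Values per library are given for up to 3 genes of each role with the highest mean over all libraries, for genes with a lower 18-month mean and for 5 set genes. The library values of Cdk1 and Nuf2, the means of other members and the genes of the other lists outside the highest means or largest separated differences, were added after their values were seen. Same-numbered libraries correlated in their deviations at -0.012, -0.090 and 0.057, so the numbers were not treated as pairs. Alternatives were other pseudocounts, filters, scalings and variance models, the replicate block, a loess correction (span 0.75) for GC content and length, leaving out each library and, added after the data were seen, genes with little shared sequence.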

Additional observations from a re-analysis of the deposited data

How the results depend on the processing

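The count of separated mitosis genes was 30 of 40, where 4.70% of all genes were separated as higher. After median-of-ratios scaling it was 33 (7.466% of all genes), and after quantile normalization also 33 (7.503%). With equal sums it was 30 (4.67% of all genes), and after correcting for GC content and length also 30 (12.4%). When a library was left out it was 30 to 35, where the share of all genes was 6.78% to 8.94%. Of the 31 genes with little shared sequence 25 were separated, and no share over all genes is given for that group. The median log2 difference of the tested genes, 0.85 over 30, was 1.29 with a pseudocount of 0.1, 1.07 with 0.5, 0.67 over all 40 with no filter and 0.13 over the 3 that averaged 5 TPM or more. The smaller values of the last 2 follow from which genes are counted. It was 0.78 to 0.93 without single libraries and 0.85 to 0.93 under the scalings, the variance models and the correction.

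Over all genes limma passed 3 at an adjusted p of 0.05, and 0 with no filter (2203 at an unadjusted p of 0.05), 15 with quantile normalization, 94 with library weights and 0 to 2 without single libraries. With the replicate number as a block it passed 0 (1445 at an unadjusted p of 0.05), and 0 with the block and the correction together (1514), and the block leaves the log2 differences as they are. For the 24 tested mitosis genes with values per library, 394 values over 18 alternatives kept direction and side of the threshold. Another 13, of 8 genes, passed it, each with quantile normalization or library weights. Ccnb2, Kif20a, Pimreg, Prc1 and Top2a passed with both. The direction turned for Cdc20 with library weights (-0.031), without the first 18-month library (-0.068) and without the first 8-month library (-0.0081), within a range of -0.068 to 0.232 without single libraries, and for Cenpa with library weights (0.013). The cause was not tested. Depth is unknown for TPM, so how far it limits the low genes is not known.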
